A study of Bos taurus with 9 samples.

Results

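Transcripts of 9 genes for the oocyte linker histone, replacement histones and the chaperones that carry histones were followed in bovine oocytes at metaphase II, the stage at which the egg awaits fertilization. The genes were H1-8, H3-3A, H3-3B, H2AZ1, NPM2, NASP, HIRA, ASF1A and ASF1B. They were chosen by name and found through the gene ID that a RefSeq table pairs with each symbol, and all 9 are among the 17852 genes of the deposited table. The 9 RNA-seq libraries fall into 3 groups of 3: control, microplastics, and both agents at once, the second agent being taurine, a sulfur-containing amino acid derivative. The group with both agents is called taurine below, and its oocytes also carried the microplastics exposure. The labels describe germ cells and give no dose, particle, duration, animal or pool size. Nothing in them ties a library to its own animal or culture, so each p-value reflects only how far these libraries spread, and that spread may be technical.

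An egg stores histones and their mRNAs before transcription of the embryo begins. H1-8 encodes the oocyte-type linker histone, which binds the DNA that enters and leaves a nucleosome and is replaced by somatic linker histones in the early embryo. H3-3A and H3-3B are separate genes that encode the same protein, histone H3.3, which is placed into chromatin outside DNA replication and is loaded on the sperm genome after fertilization. H2AZ1 encodes the variant H2A.Z. Chaperones hold histones that are not on DNA. NPM2 is the egg nucleoplasmin, which takes part in remodelling of sperm chromatin. NASP binds H1 and a soluble store of H3 and H4. HIRA places H3.3, and ASF1A and ASF1B pass H3-H4 dimers to other chaperones, ASF1A mainly to HIRA and ASF1B mainly in dividing cells.

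Libraries held 21.17 to 22.74 M estimated reads, and 3 reads correspond to 0.132 to 0.142 CPM, the reads of a gene scaled to a common library total. Levels are given as CPM scaled by TMM, a method that sets libraries on one scale through the bulk of their genes. The TMM factors were 1.214 to 1.253 in microplastics libraries and 0.8355 to 0.9725 in the others, so values also depend on that scaling. Control 3 and taurine 3 stood apart from their groups. Over all tested genes the expression of control 3 correlated at 0.976 with taurine 1 and at 0.963 with control 1, and that of taurine 3 at 0.978 with control 2 and at 0.9515 with taurine 1. All 20 markers of oocytes passed the expression filter. Their sum was 88012 to 116131 CPM in control libraries, 38346 to 46319 CPM in microplastics libraries and 79166 to 104410.0 CPM in taurine libraries. By edgeR 4 of them rose, 6 fell and 10 did not pass in microplastics minus control (median log2 -0.32). The sum therefore does not speak for each marker. With scaling by library size only, 7 rose and 4 fell. In taurine minus microplastics 5 rose and 3 fell (median 0.05). The 19 cumulus and granulosa markers present in the table summed to 515 to 620 CPM, 427 to 526 CPM and 524 to 577 CPM, with FSHR under 3 reads in every library. Of the 16 of them tested by edgeR, 5 fell and 0 rose in microplastics minus control (median log2 -0.53). In taurine minus microplastics 4 rose and 0 fell (median 0.56). Of all tested genes 14.7% fell and 9.68% rose in microplastics minus control, and 10.1% rose and 4.13% fell in taurine minus microplastics. Leukocyte, stroma, endothelial and erythroid lists each summed to at most 67.2 CPM in any library. In microplastics minus control both tested erythroid genes fell (median -1.73), 1 of 3 leukocyte markers fell, 1 of 3 stroma markers rose and 0 of 3 endothelial markers were called. The part of oocyte, cumulus and other RNA in the results below was not tested.

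Each of the 9 genes was represented by 1 transcript, and all 9 passed the filter. The RefSeq table lists 5 transcripts for HIRA and for NASP, 4 for H1-8 and 3 for NPM2. Whether reads of their other transcripts were counted is not known, so levels of these genes may be understated. Reads of 7 genes were whole numbers in every library. H3-3A and H3-3B had fractional reads in all 9 libraries, as estimates do where reads are divided among similar sequences, and the split between these 2 genes is uncertain. The table of symbols lists H3-3B among the older names of H3-3A, and the genes were kept apart here by gene ID.

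Levels between genes were compared as deposited TPM, which is corrected for length. In control oocytes H1-8 was the most abundant member, at 6508 ± 218 TPM (SD, n = 3), and ranked 13 among the 13206 tested genes. The histone H3.3 genes followed, H3-3B at 2309 ± 337 TPM and H3-3A at 1312 ± 112 TPM. Of the chaperones, ASF1B stood at 1252 ± 179 TPM, ASF1A at 438.7 ± 19.8 TPM, NPM2 at 189 ± 94.6 TPM and NASP at 56.7 ± 20.5 TPM. H2AZ1 was the lowest of the 4 member histone genes, at 17.3 ± 3.60 TPM, and HIRA was the lowest, at 0.930 ± 0.229 TPM. Neighbours in this order did not overlap between libraries, except H3-3A and ASF1B. Among microplastics libraries ASF1B overlapped with both H3-3B and H3-3A, and NPM2, at 375 ± 97.3 TPM, stood above ASF1A, at 214 ± 34.2 TPM. Among taurine libraries ASF1B overlapped with H3-3A and NPM2 with NASP. HIRA rested on 30 to 86 reads a library, so its values carry a larger counting error than those of the other members.

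The first comparison asked which of these transcripts differed after exposure to microplastics. Transcripts of H1-8, both H3.3 genes, ASF1A and HIRA were lower than in control, by 1.74 to 3.15-fold, and none of the members was called higher. In bulk RNA a smaller number of cells of a type and less RNA per cell cannot be told apart. In edgeR's quasi-likelihood test with adjustment over all 13206 tested genes, 5 members fell, 0 rose and 4 did not pass. Of all tested genes 14.7% fell and 9.68% rose. At an unadjusted p under 0.05 there were 5038 genes in this comparison. The median log2 fold change was -0.80 over the members and 0.04 over all tested genes.

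H1-8 held 5995, 5884 and 4588 CPM in control 1 to 3 and 2616, 3237 and 2293 CPM in microplastics 1 to 3. Every microplastics library lay below every control library. The mean went from 5489 ± 783 to 2715 ± 480.0 CPM (SD, n = 3), a log2 fold change of -1.02 ± 0.20 (SE, adjusted p = 0.004 by edgeR). On the deposited TPM scale the groups did not overlap either, at 6268 to 6694 in control and 4350 to 5666 with microplastics, with a smaller log2 change of -0.41 (adjusted p = 0.0331 by limma).

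H3-3B showed a larger difference than its sister gene on each scale. Its level was 4395, 3635 and 2629.9 CPM in control and 1318, 1577 and 1409.7 CPM with microplastics. No microplastics library reached the lowest control library, and the log2 fold change was -1.31 ± 0.21 (adjusted p = 0.00118 by edgeR). H3-3A was at 1332, 1081 and 984 CPM in control and at 663, 693 and 595 CPM with microplastics. The groups did not overlap, and the log2 fold change was -0.80 ± 0.16 (adjusted p = 0.00466 by edgeR). In TPM the ranges of H3-3A lay next to each other, 1200.1 to 1423 in control and 1102 to 1188 with microplastics, and that difference did not pass (log2 -0.18, adjusted p = 0.281 by limma).

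H2AZ1 was at 16.2, 14.9 and 8.62 CPM in control and at 9.09, 10.1 and 6.02 CPM with microplastics. Control 3 lay inside the microplastics range. The log2 difference of -0.65, with a 95% interval from -1.55 to 0.25, did not pass (adjusted p = 0.265 by edgeR).

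Among the chaperones ASF1A had the lowest adjusted p of the 9 genes. It held 413, 363 and 317 CPM in control and 134, 102 and 111 CPM with microplastics. The highest microplastics library was below the lowest control library. The mean fell from 364 ± 47.6 to 115.6 ± 16.5 CPM, a log2 fold change of -1.66 ± 0.18 (adjusted p = 0.000107 by edgeR). In TPM the fall was from 439 ± 19.8 to 214 ± 34.2 (log2 -1.04, adjusted p = 0.0020 by limma).

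Its paralog ASF1B gave a different outcome. ASF1B was at 2100.4, 2359 and 1479.7 CPM in control and at 1024, 1489.7 and 1250.2 CPM with microplastics. Control 3 and microplastics 2 were at nearly the same level, so the groups overlapped, and the log2 difference of -0.66 did not pass (95% interval -1.22 to -0.09, adjusted p = 0.084 by edgeR). It was called without control 3 (-0.81, adjusted p = 0.032) or without taurine 1 (-0.66, adjusted p = 0.0317), and its adjusted p over all omissions of 1 library was 0.0317 to 0.261. In TPM the means were 1252 ± 179 and 1224 ± 198.

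HIRA, the H3.3 chaperone, was at 3.16, 3.65 and 4.10 CPM in control and at 1.66, 1.77 and 1.06 CPM with microplastics. The groups did not overlap, and it fell by 1.28 ± 0.34 on the log2 scale (adjusted p = 0.0189 by edgeR). That call was lost without control 2 (adjusted p = 0.0511), microplastics 1 (0.0545) or microplastics 3 (0.0886). In TPM it did not pass (log2 -0.29, adjusted p = 0.138 by limma).

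NPM2 and NASP did not pass in this comparison. NPM2 was at 144, 57.7 and 151 CPM in control and at 161, 117 and 185 CPM with microplastics. The control libraries differed among themselves by 2.62-fold, and the log2 difference of 0.39 had a 95% interval from -0.62 to 1.40 (adjusted p = 0.564 by edgeR). NPM2 was the only member with a higher mean in microplastics than in control oocytes on the TMM scale. NASP was at 142, 109.5 and 181 CPM in control and at 124, 108 and 137 CPM with microplastics. Its log2 difference was -0.22 (adjusted p = 0.447 by edgeR), and the sign turned with scaling by library size only (0.24) and in TPM (0.40).

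**Figure D1:**
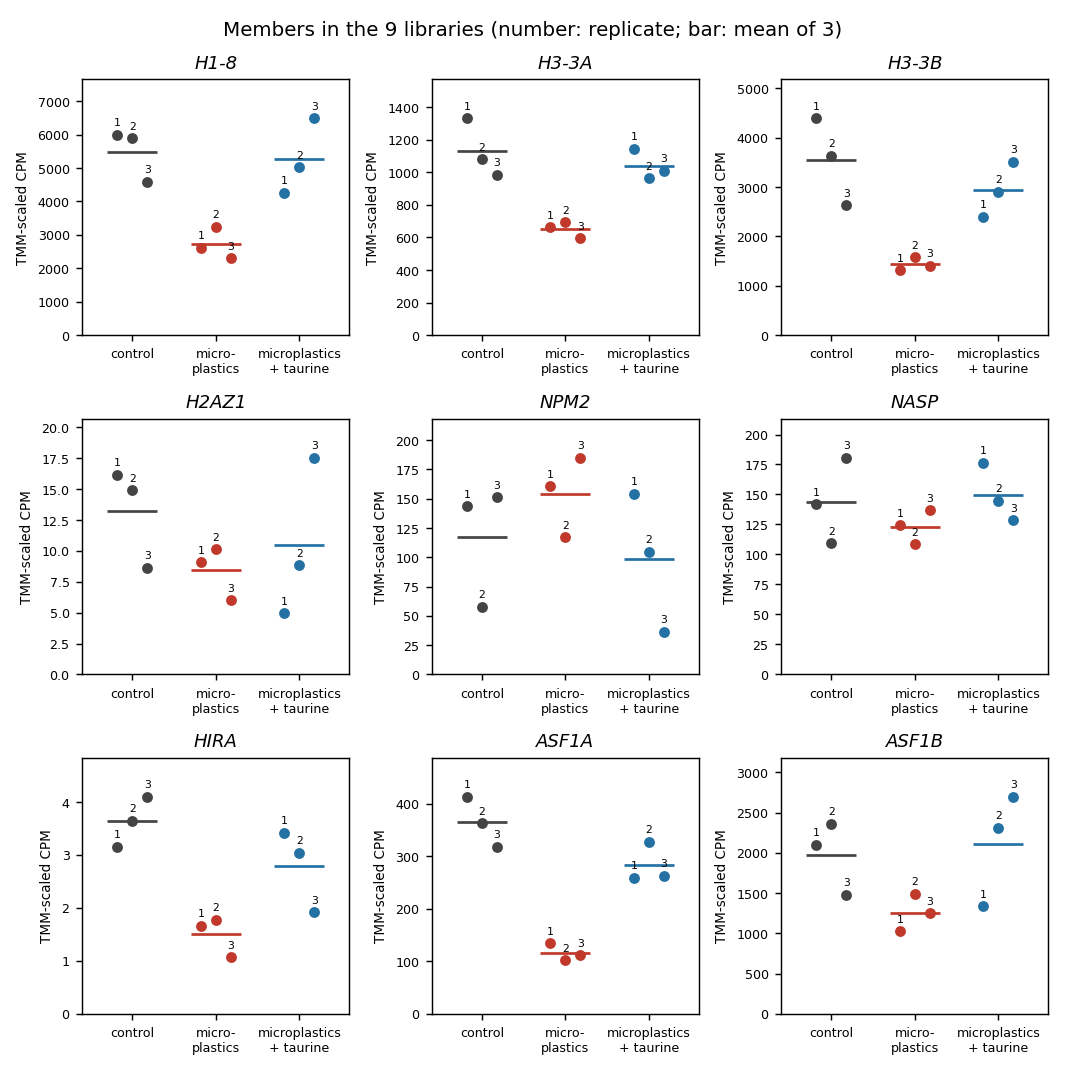
Level of each of the 9 genes in TMM-scaled CPM (linear vertical axes from 0), with 1 point a library numbered by replicate and a bar at the mean of 3. H1-8, H3-3A, H3-3B, HIRA and ASF1A have all 3 microplastics libraries below all control libraries, while NPM2 spans 57.7 to 151 CPM in control and 36.6 to 154 CPM with taurine.

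The scaling moved the size of these differences. With scaling by library size only, the median log2 change of all tested genes went from 0.04 to 0.52, and 6.64% of genes fell and 30.3% rose. Then 3 members fell and 0 rose, H1-8 (-0.53, adjusted p = 0.0203), H3-3B (-0.81, adjusted p = 0.00372) and ASF1A (-1.16, adjusted p = 0.00131), all by edgeR. H3-3A (-0.31, adjusted p = 0.103) and HIRA (-0.81, adjusted p = 0.101) did not pass. The median of the members lay 0.84 below that of all genes with TMM and 0.83 below it with library size only. A change of scaling moves all genes by nearly the same amount, so this gap could hardly differ and does not test the scaling. Groups without overlap, microplastics below control, counted 5 members in TMM-scaled CPM, 5 in CPM by library size and 5 in TPM, against 22.5%, 10.7% and 8.5% of all tested genes. By limma on TPM 3 members fell (H1-8, H3-3B and ASF1A), against 5.27% of tested genes.

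The members differ in transcript length, implied by the deposited FPKM. ASF1A, H1-8 and H3-3A were near 803, 814 and 834 nt, H3-3B was near 1474 nt and HIRA near 3847 nt. With a smooth trend on length removed in each library, 5 members were called lower, against 13.8% of tested genes, and they were the 5 named above. H1-8 then stood at -0.74 (adjusted p = 0.0106), H3-3A at -0.53 (0.0272), H3-3B at -1.26 (0.00156), HIRA at -1.48 (0.00854) and ASF1A at -1.37 (0.000284), all by edgeR. NPM2, the shortest member at about 617 nt, differed by 0.76 in that fit and did not pass (adjusted p = 0.302 by edgeR).

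With microplastics present in both groups, the next comparison asked how transcripts differed when taurine was added. H1-8, H3-3A, H3-3B and ASF1A were higher with taurine, by 1.60 to 2.45-fold, and no member was called lower. By edgeR 4 members rose, 0 fell and 5 did not pass, while 10.1% of all tested genes rose and 4.13% fell. At an unadjusted p under 0.05 there were 3832 genes. This comparison shares its microplastics libraries with the first.

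H1-8 was at 4260.0, 5018 and 6489 CPM in taurine 1 to 3, all above the highest microplastics library of 3237 CPM. The log2 fold change was 0.95 ± 0.20 (adjusted p = 0.0083 by edgeR), and the call was lost without microplastics 3 (0.83, adjusted p = 0.0524). In TPM taurine 1, at 5593, lay below microplastics 2, at 5666, and the log2 change was 0.40 (adjusted p = 0.0438 by limma).

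H3-3B rose to 2404, 2904 and 3511 CPM with taurine, a log2 fold change of 1.03 ± 0.21 (adjusted p = 0.00632 by edgeR). Its groups did not overlap in CPM or in TPM. H3-3A rose to 1143, 964 and 1009 CPM, a log2 fold change of 0.68 ± 0.16 (adjusted p = 0.0161 by edgeR). The H3-3A call was lost without microplastics 1 (adjusted p = 0.0632), microplastics 2 (0.0504) or microplastics 3 (0.0874), with scaling by library size only (0.25, adjusted p = 0.214) and with the length trend removed (0.45, adjusted p = 0.0722). In TPM H3-3A overlapped between the groups.

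ASF1A rose to 258, 327 and 262 CPM with taurine, from at most 134 CPM with microplastics. The log2 fold change was 1.29 ± 0.18 (adjusted p = 0.000709 by edgeR). It remained called in each alternative that was run, among them TPM (log2 0.75, adjusted p = 0.0108 by limma) and scaling by library size only (0.86, adjusted p = 0.00751 by edgeR). ASF1B was at 1338, 2315 and 2697 CPM with taurine. Taurine 1 lay within the microplastics range, and the log2 difference of 0.75 did not pass (95% interval 0.19 to 1.32, adjusted p = 0.0739 by edgeR), but it was called without taurine 1 (1.00, adjusted p = 0.0113).

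HIRA was at 3.42, 3.04 and 1.91 CPM with taurine, and the log2 difference of 0.90 did not pass (adjusted p = 0.103 by edgeR), although each taurine library lay above each microplastics library. Groups without overlap, taurine above microplastics, counted 5 members in TMM-scaled CPM, 4 in CPM by library size and 2 in TPM, against 18.7%, 7.72% and 5.98% of tested genes. Scaling by library size only called 3 members higher (4.54% of tested genes), removing the length trend 3 (8.26%) and limma on TPM 3 (3.76%). NASP, at 177, 145 and 129 CPM, overlapped with the microplastics libraries (log2 0.28, adjusted p = 0.386 by edgeR, with the sign turned to -0.14 when libraries were scaled by size alone). H2AZ1, at 4.94, 8.83 and 17.6 CPM, differed by 3.55-fold within the taurine group, more than between any 2 group means. Its log2 difference of 0.31 (adjusted p = 0.661 by edgeR) turned to -0.29 without taurine 3.

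NPM2 again had the opposite sign from the histones. It was at 154, 104.6 and 36.6 CPM with taurine, and taurine 1 lay within the microplastics range. The log2 difference of -0.65 did not pass (95% interval -1.66 to 0.36, adjusted p = 0.378 by edgeR). In TPM the 3 taurine libraries, at 266, 178 and 56.5, lay below the 3 microplastics libraries, at 271 to 464, as did 45% of tested genes, but that difference did not pass either (log2 -1.39, adjusted p = 0.0689 by limma).

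The third comparison set taurine oocytes, which received both agents, against control oocytes. By edgeR 0 of the 9 members were called, and 0.00757% of tested genes, which is 1 gene, was called. At an unadjusted p under 0.05 there were 753 genes, and 0 members were among those called by DESeq2 or by limma on TPM. H1-8 differed by log2 -0.06, with a 95% interval from -0.49 to 0.37, and H3-3A by -0.12 (-0.47 to 0.23). H3-3B differed by -0.27 (-0.72 to 0.17) and HIRA by -0.38 (-1.11 to 0.35). ASF1A lay lowest relative to its interval, at -0.37 (-0.75 to 0.01), and all but 1 of its taurine libraries lay below the control range of 317 to 413 CPM. The intervals of NPM2 (-1.26 to 0.75) and H2AZ1 (-1.24 to 0.55) were the widest, so a level 2-fold lower lay inside the interval of either gene. Without control 3 and taurine 3, 5.83% of tested genes (783) and 0 members were called, and H2AZ1 stood at -1.17 (adjusted p = 0.0561) and H3-3B at -0.59 (adjusted p = 0.0657), both by edgeR.

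**Figure D2:**
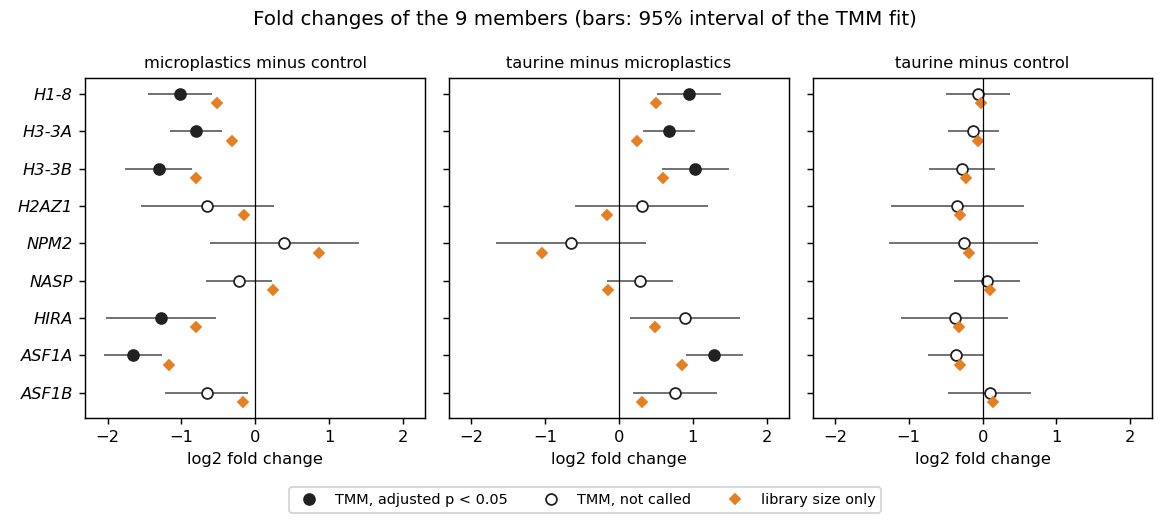
Log2 fold change of the 9 genes in the 3 comparisons, with the 95% interval of the TMM fit as a bar, filled points for genes called and orange diamonds for scaling by library size only. In microplastics minus control 5 points are filled on the left, from -0.80 to -1.66, in taurine minus microplastics 4 are filled on the right, from 0.68 to 1.29, and in taurine minus control none is filled.

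Without control 3 and taurine 3, 7 members were called lower with microplastics, against 18.6% of the 13426 genes tested in that fit, where the share over all genes was also higher than with all libraries. H2AZ1 (-0.87, adjusted p = 0.0329) and ASF1B (-0.81, adjusted p = 0.0115) joined the 5 named above. Control 3 and taurine 3 stood apart in these same data, so a narrower spread within groups follows from leaving them out. In taurine minus microplastics 4 members were called higher, against 9.09% of tested genes, and they were H1-8 (0.76), H3-3A (0.68), H3-3B (0.88) and ASF1A (1.33), as with all libraries.

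Ratios between 2 members within a library do not depend on how libraries are scaled to each other. With 3 libraries against 3 an exact permutation test cannot give a p below 0.1, so the ratios are given as values, and of the 18 comparisons of 6 ratios none passed after adjustment (smallest adjusted p = 0.36, two-sided). H3-3A stood to H3-3B at 0.536, 0.525 and 0.662 in control libraries, at 0.889, 0.778 and 0.748 in microplastics libraries and at 0.838, 0.585 and 0.508 in taurine libraries. All microplastics libraries had a higher share of H3-3A than all controls, by 1.41-fold on average, within the limit set by reads shared between these genes. ASF1A stood to ASF1B at 0.371, 0.290 and 0.406 in control and at 0.247, 0.129 and 0.168 with microplastics, without overlap, and at 0.364, 0.266 and 0.184 with taurine.

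NPM2 stood to H1-8 at 0.0316, 0.0129 and 0.0435 in control libraries, at 0.0810, 0.0478 and 0.107 in microplastics libraries and at 0.0476, 0.0274 and 0.00745 in taurine libraries. The egg nucleoplasmin thus had its 3 highest ratios to the linker histone in the 3 microplastics libraries, 2.85-fold above control on the log average and 3.49-fold above taurine. Both values rested in part on single libraries. The log2 difference of microplastics minus control was 1.51 with all libraries, 1.01 without control 2 and 1.88 without control 3. That of taurine minus microplastics was -1.80 with all libraries and -1.04 without taurine 3. H3-3B stood to H2AZ1 at 134, 120.5 and 150.2 in control and at 71.5, 76.5 and 115 with microplastics, without overlap, and at 241, 163 and 98.6 with taurine. The ratios of NASP to H1-8 and of HIRA to ASF1A overlapped between groups in every comparison.

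**Figure D3:**
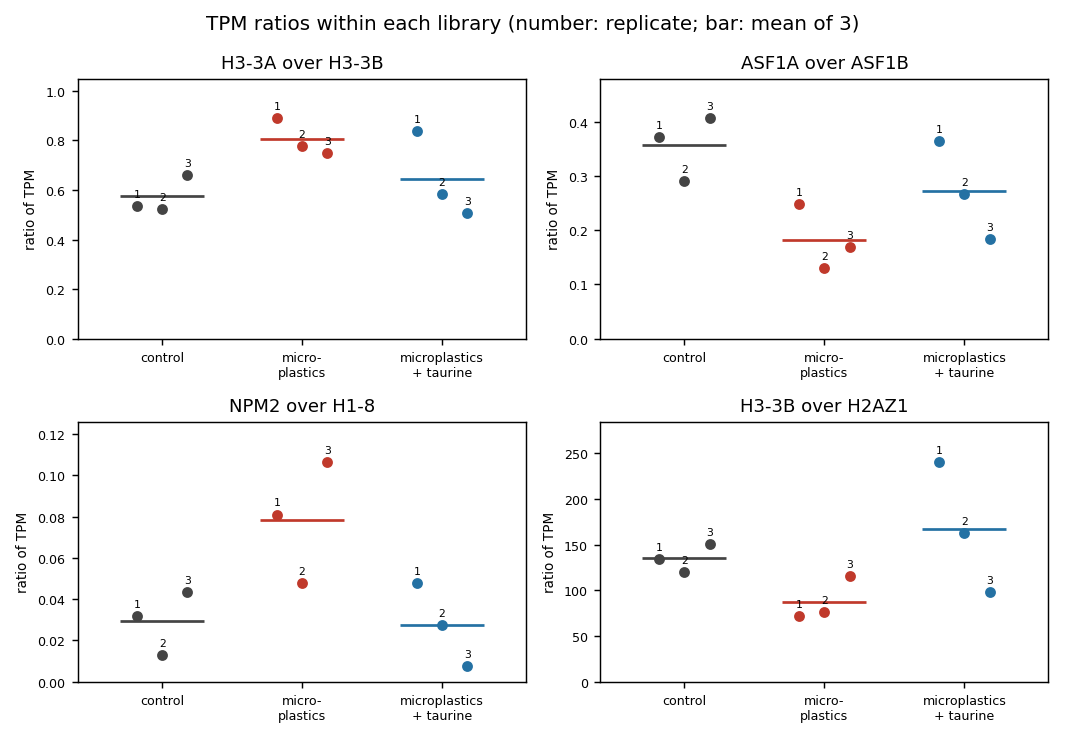
Ratio of deposited TPM of 2 members within each library (linear axes from 0), numbered by replicate, with a bar at the mean of 3. The 3 microplastics libraries lie above the 3 controls for H3-3A over H3-3B and NPM2 over H1-8, and below them for ASF1A over ASF1B and H3-3B over H2AZ1.

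Within groups the members varied unequally. The within-group SD of log2 CPM was 0.79 for NPM2, larger than in 91.5% of the 13206 tested genes, 0.64 for H2AZ1 and 0.40 for ASF1B. It was 0.16 for H3-3A and 0.19 for ASF1A, smaller than the median of 0.35 over all tested genes. NPM2 was low in control 2 (57.7 CPM) and taurine 3 (36.6 CPM) and differed by 4.20-fold among taurine libraries.

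Deviations from the group mean grouped the members in 2 sets, described here over the 9 libraries, which share their sequencing depth and scaling. H1-8, H3-3B, H2AZ1 and ASF1B deviated together, with Pearson r from 0.82 to 0.95 for each pair. They were low in control 3 and taurine 1 and high in taurine 3. NPM2 and NASP deviated together (r = 0.85) and against those 4 genes (r from -0.57 to -0.84). For H3-3A, ASF1A and HIRA, r with the other members lay between -0.56 and 0.44. Among control and taurine libraries the TMM factor was 0.9725 in control 3 and 0.9585 in taurine 1 against 0.8409 in taurine 3, and the part of what sets those libraries apart was not tested. NPM2 also differed among taurine libraries in CPM by library size only, at 148, 99.4 and 30.8.

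**Figure D4:**
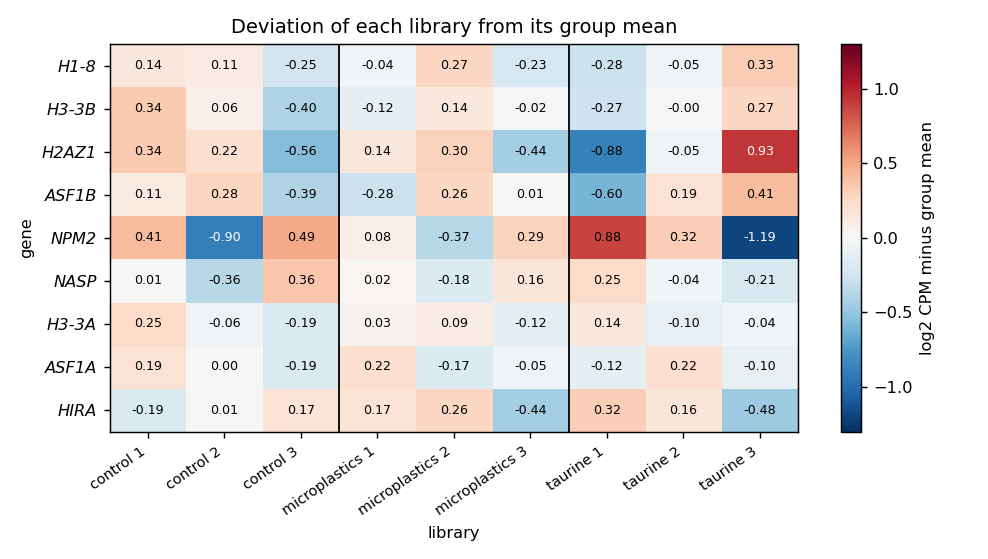
Log2 CPM of each gene in each library minus the mean of its group, printed in each cell, with red above and blue below the mean. H1-8, H3-3B, H2AZ1 and ASF1B are below their group mean in control 3 and taurine 1 and above it in taurine 3, and NPM2 shows 0.49, 0.88 and -1.19 in those 3 libraries.

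Genes whose pattern over the 9 libraries was most like that of a member were listed by Pearson r of log2 CPM, among named genes of at least 5 CPM. For H1-8 these were HTATIP2 and SUSD6 (r = 0.989 for both), and for ASF1A they were PLAC1 (0.993) and TMEM70 (0.991). H3-3B was most like PNO1 and S100PBP (0.994 for both), and H3-3A was most like CKS2 (0.991). In TPM the likeness of S100PBP to H3-3B was 0.734. ASF1B was most like HDAC3, a histone deacetylase, (0.990) and BLCAP (0.989), NPM2 most like ZNF622 (0.965) and FAM50A (0.960), and NASP most like KIF26B (0.947) and SMARCE1, a subunit of the BAF chromatin remodeller (0.944). H2AZ1 was most like SLC16A10 (0.976) and RNF207 (0.955), and HIRA most like RPL28 (0.965) and C6H4orf48 (0.948). The microplastics group stands apart in these 9 libraries, so many genes share the pattern of members that differ between groups. NPM2, NASP, H2AZ1 and ASF1B overlapped between groups in TMM-scaled CPM in every comparison. For their listed genes, r of the deviations from the group mean was 0.930 to 0.989. For the genes listed for the other members that r was 0.746 to 0.981.

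Other histone genes and chaperones were read from 5 lists, each by its count of calls and its median beside all tested genes. In microplastics minus control 9.68% of all tested genes rose and 14.7% fell. With scaling by library size only, 30.3% rose and 6.64% fell, and the counts on that scale below are to be read beside these shares. In contrast to the members, the median of each list was above that of all tested genes in microplastics minus control. Of 15 tested linker histones and histone variants, 2 rose, 1 fell and 12 did not pass, with a median of 0.35. The somatic-type linker histone H1-1 rose from 389 ± 57.9 to 709.5 ± 148 CPM and H1-2 from 90.0 ± 27.6 to 176.5 ± 24.5 CPM. Both calls depended on single libraries, H1-1 on control 1 (adjusted p = 0.0855 by edgeR without it) and microplastics 2 (0.0811), and H1-2 on control 1 (0.0914), microplastics 1 (0.0691) and microplastics 2 (0.0790). H3-5, an H3.3-like histone gene whose reads were also fractional, fell from 10.3 ± 4.05 to 4.88 ± 0.856 CPM, and leaving out control 1, control 2 or any microplastics library ended that call. Scaled by library size alone, 5 of this list rose and 0 fell, and H3-5 did not pass (-0.57, adjusted p = 0.144 by edgeR).

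Of 23 tested chaperones of H3-H4 and H1, 5 rose, 2 fell and 16 did not pass, with a median of 0.57. UBN1, a subunit of the HIRA complex, rose from 5.03 ± 2.18 to 12.8 ± 3.02 CPM (log2 1.34, adjusted p = 0.0197 by edgeR), while HIRA itself fell. The UBN1 call was lost without control 1, control 2, microplastics 2 or microplastics 3. SUPT6H, an H3-H4 chaperone of transcribing chromatin, rose from 2.09 ± 2.02 to 7.48 ± 1.22 CPM, which did not pass once control 1, control 2 or any microplastics library was left out. SETDB1, a histone methyltransferase, rose from 48.5 ± 3.85 to 87.9 ± 14.8 CPM. HAT1, which acetylates new histone H4, fell from 129 ± 31.1 to 59.0 ± 8.03 CPM, and RBBP7, its histone-binding partner, fell from 3703 ± 441 to 2199 ± 146 CPM. Scaled by library size alone, 14 of this list rose and 1 fell, and RBBP7 did not pass (-0.26, adjusted p = 0.103 by edgeR).

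Of 16 tested chaperones of H2A-H2B, 4 rose, 2 fell and 10 did not pass, with a median of 0.28. NPM1, the nucleophosmin of the same family as NPM2, fell from 2147 ± 169.6 to 1277 ± 124 CPM (log2 -0.75, adjusted p = 0.00709 by edgeR). NAP1L1, a nucleosome assembly protein, fell from 357 ± 26.4 to 222 ± 41.0 CPM, not called once control 1, microplastics 1 or microplastics 2 was left out, and its relative NAP1L4 rose from 25.5 ± 8.18 to 48.5 ± 3.75 CPM. IPO9, an importer of H2A-H2B, rose from 11.7 ± 2.68 to 21.8 ± 1.88 CPM and TSPYL2 from 5.40 ± 1.39 to 9.81 ± 0.178 CPM. NAP1L4, IPO9 and TSPYL2 each lost the call in 4 or 5 of the fits without 1 library. Scaled by library size alone, 8 of this list rose and 0 fell, so neither NPM1 (-0.27, adjusted p = 0.21) nor NAP1L1 (-0.20, adjusted p = 0.327) passed by edgeR.

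Of 20 tested genes of the complexes that exchange H2A.Z, 6 rose, 4 fell and 10 did not pass, with a median of 0.43. MORF4L2 fell from 547 ± 43.4 to 241 ± 17.7 CPM, ING3 from 136 ± 19.6 to 57.4 ± 9.33 CPM and ACTL6A from 83.5 ± 7.16 to 47.9 ± 2.65 CPM. TRRAP, the large scaffold of these complexes, rose from 25.4 ± 5.14 to 46.7 ± 5.90 CPM. KAT5, the acetyltransferase, rose from 7.79 ± 1.71 to 13.9 ± 0.537 CPM and MBTD1 from 9.43 ± 2.14 to 16.7 ± 3.19 CPM, with calls lost in 6 and 4 of the fits without 1 library. Scaled by library size alone, 10 of this list rose and 2 fell, and ACTL6A did not pass (-0.31, adjusted p = 0.140 by edgeR). Of 16 genes that process histone mRNA, 0 rose and 0 fell by edgeR, with a median of 0.10, and 5 rose with scaling by library size only.

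**Figure D5:**
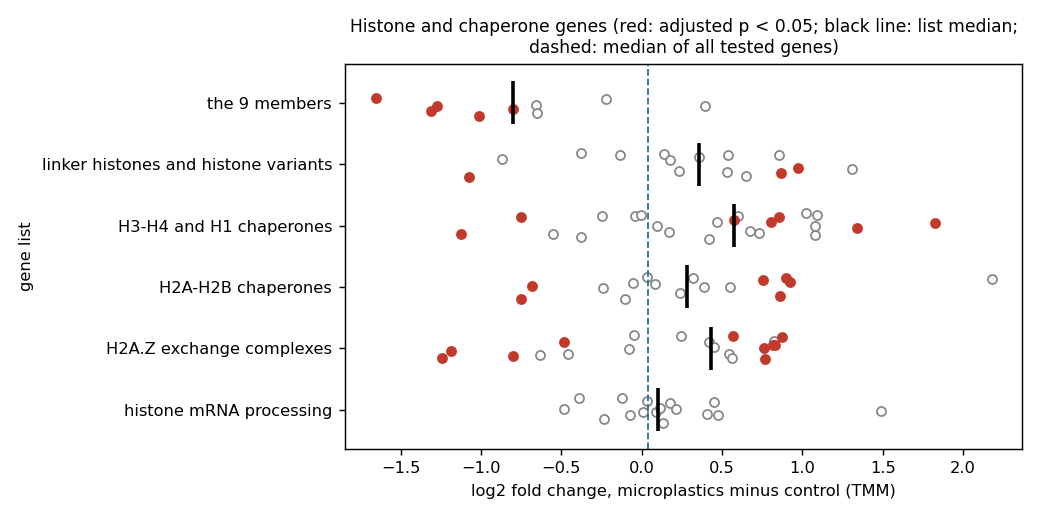
Log2 fold change in microplastics minus control for the 9 members and the tested genes of 5 lists, with red points for genes called, a black line at the median of each list and a dashed line at the median of all tested genes (0.04). The members' median is -0.80, and those of the lists lie between 0.10 and 0.57.

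In taurine minus microplastics these lists counted fewer calls, as did all tested genes, of which 1878 were called against 3213 in microplastics minus control. Of all tested genes 10.1% rose and 4.13% fell with taurine. H3-H4 and H1 chaperones counted 2 rises and 1 fall, H2A-H2B chaperones 2 rises and 0 falls, and H2A.Z exchange genes 4 rises and 2 falls, by edgeR. RBBP7 rose from 2199 ± 146 to 3738 ± 568 CPM, a call lost without microplastics 1, and HAT1 rose from 59.0 ± 8.03 to 92.3 ± 0.649 CPM, a call lost without any 1 of the compared libraries. NPM1 rose from 1277 ± 124 to 2227 ± 377 CPM (log2 0.80, adjusted p = 0.00722 by edgeR) and MORF4L2 from 241 ± 17.7 to 531 ± 76.9 CPM. SETDB1 and TRRAP fell, SETDB1 to 53.6 ± 0.594 CPM, a call lost without microplastics 1, and TRRAP to 23.8 ± 2.23 CPM. The differences of H1-1 (-0.63, adjusted p = 0.088) and H1-2 (-0.46, adjusted p = 0.281) did not pass by edgeR. Scaled by library size alone, H1-1 fell (-1.04, adjusted p = 0.0174 by edgeR), and the list of linker histones and variants counted 2 falls and 0 rises. On that scale the rises of RBBP7, HAT1, NPM1, NAP1L1 and ACTL6A did not pass. The 3 chaperone and exchange lists together counted more falls than rises there. So did all tested genes, with 599 rises among 3080 calls and a median log2 change of -0.45.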

How the data were processed

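The authors deposited estimated counts of reads per transcript, FPKM and TPM for 9 libraries, per the file headers. They also deposited a signal of estimated counts multiplied by 1 factor per library, and group means. Which aligner, counting program, build and annotation made them is not given in the sources used here. Deposited TPM sum to 1000000 or 1000001 in a library. Estimated counts and TPM were summed per gene (17852 genes, of which 95.2% matched a symbol by gene ID in the RefSeq table of assembly ARS-UCD2.0), and counts were rounded. FPKM served only to give transcript length. The authors' signal and means were not used. Genes were tested with edgeR 4.0.16 in R 4.3.3 (TMM, filter of minimum count 10 and minimum total 15, robust quasi-likelihood fit, 1 coefficient per group over all 9 libraries, Benjamini-Hochberg adjustment, call at an adjusted p under 0.05). TPM were tested with limma 3.58.1 on log2(TPM + 1), which understates changes of low genes such as HIRA. DESeq2 1.42.0 was an alternative. Intervals of fold changes are at 95%. Ratios within a library used an exact permutation test in scipy 1.17.1.

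The members, lists and tests were chosen with earlier results of these data known. Named genes were the 9 members, up to 3 rising and 3 falling genes of each list with the largest fold change in microplastics minus control, and the 2 genes most like each member. One gene that this rule names is not reported here. CODANIN1 and SPT2 in the H3-H4 list are other names of CDAN1 and SPTY2D1, which are also in it. Marker lists of other cell types are given by their summed levels and counts of calls. On simulated counts for microplastics minus control (12936 genes), 0 of 50 genes changed by 1.5-fold and 7 of 50 changed by 2-fold were called. At 4-fold 32 of 50 were called and at 8-fold 47 of 50, with 8 false calls. Far fewer genes were changed there than the 3213 called in the data. The adjustment was therefore stricter in the simulation, and its rates need not hold for the data. No library pair within a group agreed within sampling noise (chi-square per degree of freedom at least 31.3 over genes), so none was counted as a duplicate.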

Additional observations from a re-analysis of the deposited data

How the results depend on the processing

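Of the members' calls, those of H1-8, H3-3B and ASF1A in microplastics minus control held in each alternative run. In taurine minus microplastics those of H3-3B and ASF1A did. The alternative with the most abundant transcript only could hardly change the members, since each had 1 transcript. Libraries scaled by size alone gave 4880 called genes and 3 members in microplastics minus control, and 3080 genes in taurine minus microplastics. Deposited TPM with limma gave 6036 genes and 3 members, and 4374 genes. Leaving out 1 library gave 1715 to 4151 genes in the first comparison and 888 to 2146 genes with 2 to 5 members in the second. Leaving out control 3 and taurine 3 together gave 5110 genes in the first, and 783 genes with 0 members in taurine minus control. Genes called in taurine minus control were 5 by the DESeq2 Wald test, 2 with the most abundant transcript only, 0 with the filter of 5 CPM, 0 in TPM, 0 with only the compared groups and 0 to 2 without 1 library. HIRA could not be tested with the filter of 5 CPM. With only the compared groups ASF1B was also called lower with microplastics (-0.66, adjusted p = 0.0338 by edgeR), and the DESeq2 Wald test called it higher with taurine (0.76, adjusted p = 0.044).

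The labels do not say whether libraries of the same replicate number belong together. Deviations of same-numbered libraries correlated between -0.4452 and 0.2637, and those of different-numbered libraries from different groups between -0.3097 and 0.395. With 3 libraries a group, whose deviations sum to 0, these values cannot show whether the numbers pair the libraries. With the replicate number as a block, 2417, 1293 and 0 genes were called in the 3 comparisons, and 5, 4 and 0 members.

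Signs turned for values that had not passed. In microplastics minus control NASP was at 0.24 (size alone) and 0.40 (TPM). In taurine minus microplastics H2AZ1 was at -0.16 (size alone), -0.35 (TPM) and -0.30 (without control 3 and taurine 3), and from -0.29 to 0.65 without 1 library, and NASP at -0.14 and -0.25. In taurine minus control, without 1 library, H1-8 ranged from -0.24 to 0.067, H3-3A from -0.21 to 0.0089, NPM2 from -0.74 to 0.14, NASP from -0.11 to 0.26 and ASF1B from -0.12 to 0.34. Without control 3 and taurine 3, NPM2 was at 0.37 and ASF1B at -0.28. Log2 ratios in that comparison ranged from -0.067 to 0.29 (H3-3A over H3-3B), -0.87 to 0.47 (NPM2 over H1-8), -0.11 to 0.46 (NASP over H1-8), -0.27 to 0.17 (HIRA over ASF1A) and -0.084 to 0.56 (H3-3B over H2AZ1). The cause was not tested.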
